A study of Mus musculus with 12 samples.

Results

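The surface receptors and signalling partners that mark follicular helper T (Tfh) cells were followed through 4 groups of mouse CD4+ T cells by total RNA sequencing. The set held 10 genes, taken by symbol from the 35492 symbols of the deposited expression tables: Cxcr5, S1pr2, P2rx7, Icos, Cd40lg, Pdcd1, Btla, Cd200, Slamf6 and Sh2d1a. All 10 were found in every library, and all 10 were among the 23308 genes tested, those whose mean TPM (transcripts per 1000000, a length-corrected abundance) reached 1 in some group. Sh2d1a encodes an intracellular adaptor, Cd40lg a membrane-bound ligand and Cd200 a ligand of the receptor CD200R. The set is thus a little wider than receptors in the strict sense.

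The 12 libraries, 3 per group, came from C57BL/6J mice 7 weeks old. For Tfh_TILS, cells carrying CD4, CXCR5 and PD1, a surface profile of Tfh cells, were sorted from tumours of MC38, a colon carcinoma line of the mouse. For Tfh_OTII, naive T cells were taken from OT-II mice, a line with a transgenic antigen receptor that recognises an ovalbumin peptide. They were cultured on plates coated against CD3 and CD28 in the presence of IL-6 and IL-21 (50 ng/ml of each), with IL-4, IFNγ and TGFβ blocked by antibodies at 10 µg/ml each. For Tfh_Vitro, wild-type naive cells went through that culture. For Th1_Vitro, wild-type naive cells received IL-12 at 10 ng/ml with IL-4 blocked, the condition for T helper 1 cells. Culture lasted 24 h by the titles of Tfh_Vitro and Th1_Vitro and 48 h by those of Tfh_OTII, while the protocol states 48 h throughout. Receptor transgene and culture time therefore cannot be told apart in Tfh_OTII against Tfh_Vitro, and tumour origin, sorting and culture cannot be told apart in Tfh_TILS against the cultures. The proteins encoded by Cxcr5 and Pdcd1 defined the cells of Tfh_TILS, so high levels of these 2 mRNAs there are a check of the label and not a finding.

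Tfh cells help B cells in germinal centres. CXCR5 draws them towards the CXCL13 of the follicle, S1PR2 holds them in the germinal centre, and ICOS and CD40L deliver help during contact with B cells. SLAM family receptors signal through the adaptor SAP, encoded by Sh2d1a, and prolong that contact, while PD1, BTLA and CD200 carry restraining signals. P2RX7, a channel opened by extracellular ATP, limits Tfh cell numbers in mouse Peyer's patches.

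Library quality set how the values could be read. The deposited TPM carry no depth, so depth is unknown. In Th1_Vitro, 14 symbols that each reached above 1% of TPM in some library, among them satellite-like gene models and Lars2, took 51.7 to 67.9% of all TPM, compared with 18.1 to 33.4% in Tfh_TILS, 13.2 to 13.7% in Tfh_OTII and 22.7 to 26.6% in Tfh_Vitro. Because TPM add up to a fixed sum, every fold change was computed as deposited and again after median-of-ratios scaling. Scaling moved the median log2 fold change of all tested genes by -0.72, -0.66 and -0.64 in Tfh_TILS, Tfh_OTII and Tfh_Vitro over Th1_Vitro, and by -0.06, -0.10 and -0.04 in Tfh_TILS over Tfh_OTII, Tfh_TILS over Tfh_Vitro and Tfh_OTII over Tfh_Vitro. Over Th1_Vitro the median of the 10 genes moved further, from 2.04 to 0.89 in Tfh_TILS, 0.83 to -0.22 in Tfh_OTII and 1.55 to 0.64 in Tfh_Vitro. Values were fitted as log2(TPM + 1), on which scaling moves genes of low TPM less, so these medians are not like for like. A gene is said to have risen or fallen only where limma called it in the same direction both ways, with p-values adjusted by Benjamini-Hochberg over all genes tested and a threshold of 0.05. T cell markers were present in all 12 libraries, with 11 genes summing to 1828 to 3346 TPM in Tfh_TILS, 3925 to 4281 in Tfh_OTII, 2004 to 2424 in Tfh_Vitro and 666 to 1531 in Th1_Vitro.

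Tfh_TILS replicate 2 stood apart from the other libraries of its group. The summed level of 12 macrophage and monocyte markers was 89.3, 849 and 236 TPM in Tfh_TILS replicates 1, 2 and 3, against 14.2 to 41.1 in Tfh_OTII, 22.8 to 39.2 in Tfh_Vitro and 7.97 to 11.1 in Th1_Vitro. The summed level of 12 B cell markers was 171 to 189 TPM in Tfh_TILS, 55.3 to 76.1 in Tfh_OTII, 86.6 to 113 in Tfh_Vitro and 72.3 to 110.3 in Th1_Vitro. Of the macrophage markers, 8 of 12 rose in Tfh_TILS over Tfh_OTII, 6 over Tfh_Vitro and 9 over Th1_Vitro, and of the B cell markers 7, 1 and 1 of 12 rose. Of all tested genes, 6.76, 0.965 and 10.2% rose in the same comparisons. No macrophage or B cell marker was at 0 in all 3 libraries of a group. Foxp3, the lineage factor of regulatory T cells, singled out after its values were seen, had 54.1, 147 and 74.4 TPM in Tfh_TILS, against 1.66 to 2.19 in Tfh_OTII, 12.9 to 31.7 in Tfh_Vitro and 0.547 to 1.53 in Th1_Vitro. The part of such cells in the receptor levels was not tested, and in bulk RNA fewer cells of a type and less RNA per cell cannot be told apart.

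**Figure D1:**
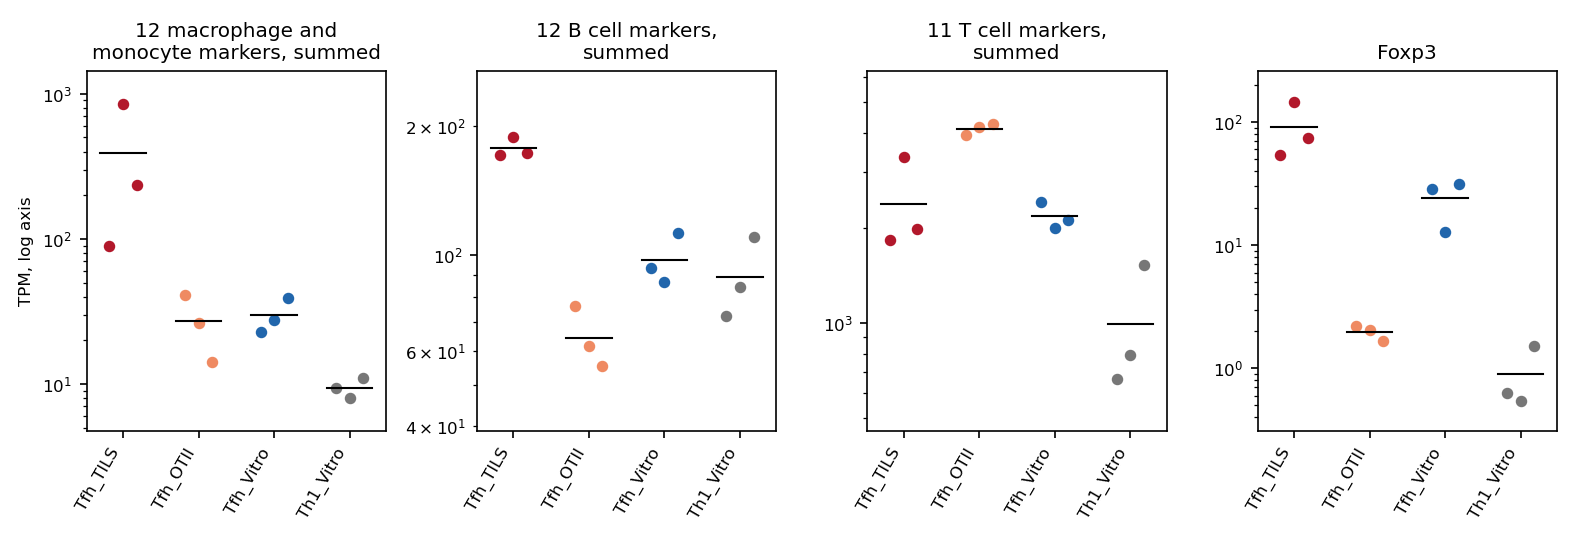
Summed TPM of 12 macrophage and monocyte markers, 12 B cell markers and 11 T cell markers, and TPM of Foxp3, on log axes; points are libraries (replicates 1 to 3 from left) and lines are group means. Tfh_TILS replicate 2 has the highest macrophage sum, 849 TPM, and the highest Foxp3 level, 147 TPM.

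Icos had the largest difference of the set in each comparison of Tfh_TILS. Icos (chr1:60977927-61000320, plus strand, GRCm38), the costimulatory receptor that supports Tfh differentiation, had 136, 382 and 156 TPM in the 3 Tfh_TILS libraries. It had 26.7, 24.5 and 20.7 TPM in Tfh_OTII, 72.5, 48.4 and 75.5 TPM in Tfh_Vitro and 13.9, 22.9 and 19.7 TPM in Th1_Vitro. All 3 tumour libraries lay above every cultured library, and the Tfh_OTII and Th1_Vitro ranges overlapped as deposited. Icos rose in Tfh_TILS over Tfh_OTII by 3.02 ± 0.35 on the log2 scale (limma SE; adjusted p = 0.000175), and by 2.92 after scaling (adjusted p = 0.00016). Over Th1_Vitro it rose by 3.38 ± 0.35 (adjusted p = 3.48e-05), and by 2.20 after scaling (adjusted p = 0.00134). Both calls held when any 1 library of the groups compared was left out. Without Tfh_TILS replicate 2 the change over Tfh_OTII was 2.56 (adjusted p = 0.000197).

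Icos also rose in Tfh_TILS over Tfh_Vitro, by 1.63 ± 0.35 (adjusted p = 0.0331) and by 1.49 after scaling (adjusted p = 0.0365). That call was lost without Tfh_TILS replicate 2 (1.17, adjusted p = 0.0627), without Tfh_TILS replicate 3 (1.81, adjusted p = 0.0585) and without Tfh_Vitro replicate 1, 2 or 3 (adjusted p = 0.107, 0.181 and 0.0785). It was also lost with no filter on low genes (adjusted p = 0.0587), with only these 2 groups fitted (adjusted p = 0.0802) and with the replicate number as a block (adjusted p = 0.0547). Between the cultured groups, Icos differed by -1.39 ± 0.35 in Tfh_OTII over Tfh_Vitro (adjusted p = 0.06) and by -1.43 after scaling (adjusted p = 0.046). Of these 2 fits, only the scaled one called it, and that call was lost when any 1 of the 6 libraries was left out. Among 15 alternatives to the fit as deposited, this scaling included, Icos was called in 6 (lowest adjusted p = 0.00518). The ranges of these 2 groups did not overlap. Against Th1_Vitro, Icos was called in Tfh_Vitro as deposited alone (1.75, adjusted p = 0.00196; 0.70 and adjusted p = 0.179 scaled), and in Tfh_OTII the sign turned without a call (0.35 as deposited, -0.73 scaled).

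Cd40lg ran the other way. Cd40lg (chrX:57212143-57224042, plus strand), the ligand that activates B cells through CD40, had 65.7, 35.8 and 58.9 TPM in Tfh_TILS. It had 100.1, 118 and 117 TPM in Tfh_OTII, 114, 98.8 and 100.1 TPM in Tfh_Vitro and 20.6, 33.4 and 41.5 TPM in Th1_Vitro. The tumour libraries lay below all 6 libraries of the Tfh cultures and overlapped with Th1_Vitro. Cd40lg fell in Tfh_TILS over Tfh_OTII by 1.09 on the log2 scale (SE 0.28, adjusted p = 0.0197), and by 1.17 after scaling (adjusted p = 0.0272). The call was lost without Tfh_TILS replicate 2 (-0.83, adjusted p = 0.0713), Tfh_OTII replicate 2 (-1.05, adjusted p = 0.0712) or Tfh_OTII replicate 3 (-1.06, adjusted p = 0.0753), on the scaled values also without Tfh_TILS replicate 3 (-1.25, adjusted p = 0.0542), and with libraries scaled to the CD3 chain genes Cd3d, Cd3e and Cd3g (-0.62, adjusted p = 0.25). Over Tfh_Vitro the difference was -0.99 ± 0.28 (adjusted p = 0.0952; -1.12 and adjusted p = 0.104 after scaling). Over Th1_Vitro, Cd40lg was higher as deposited (0.74 ± 0.28, adjusted p = 0.0431), but the sign turned after scaling (-0.45, adjusted p = 0.365). The cultures exceeded Th1_Vitro as deposited, by 1.83 in Tfh_OTII (adjusted p = 0.000213) and 1.73 in Tfh_Vitro (adjusted p = 0.000499), and scaling left 0.73 and 0.67, not called (adjusted p = 0.131 and 0.184).

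The ratio of Icos to Cd40lg within a library does not depend on scaling. It was 2.07, 10.7 and 2.65 in Tfh_TILS, against 0.267, 0.207 and 0.177 in Tfh_OTII, 0.637, 0.490 and 0.754 in Tfh_Vitro and 0.674, 0.685 and 0.475 in Th1_Vitro. Icos mRNA exceeded Cd40lg mRNA in all 3 tumour libraries and in no cultured library. The Tfh_OTII libraries had the lowest ratios, and Tfh_Vitro and Th1_Vitro overlapped.

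**Figure D2:**
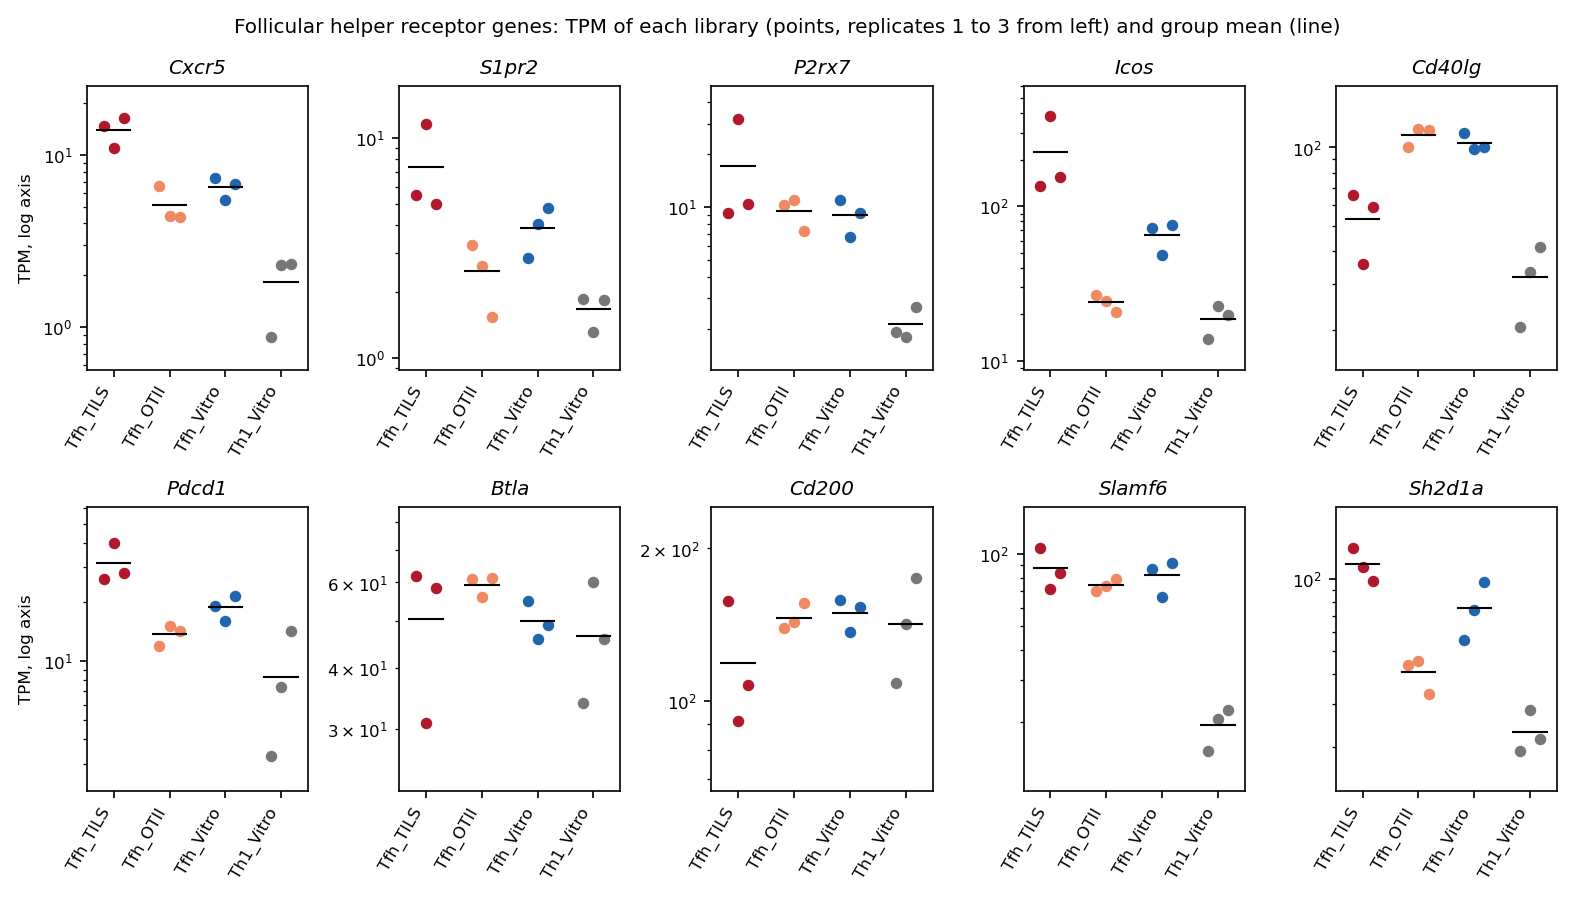
TPM of the 10 receptor genes in each library on log axes, with points for replicates 1 to 3 from left and a line for the group mean. Icos is highest in Tfh_TILS (136 to 382 TPM), Cd40lg in the 2 Tfh cultures (98.8 to 118 TPM), Slamf6 is lowest in Th1_Vitro (15.1 to 22.4 TPM), and Btla and Cd200 have similar levels in all 4 groups as deposited.

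The homing receptors were the least abundant of the set. Cxcr5 (chr9:44511787-44561877, minus strand), the receptor for CXCL13, had 14.7, 11.0 and 16.3 TPM in Tfh_TILS, whose cells were gated on its protein. It had 6.56, 4.40 and 4.34 TPM in Tfh_OTII, 7.34, 5.50 and 6.74 TPM in Tfh_Vitro and 0.872, 2.29 and 2.33 TPM in Th1_Vitro. As deposited, every Tfh_TILS library lay above all the others, and every Th1_Vitro library lay below all the others. Cxcr5 rose in Tfh_TILS over Tfh_OTII (1.30 ± 0.29, adjusted p = 0.00859; 1.19 and adjusted p = 0.0196 after scaling) and over Th1_Vitro (2.44 ± 0.29, adjusted p = 6.14e-05; 1.52 and adjusted p = 0.00566 after scaling), where it stood at the threshold with libraries scaled to the CD3 chain genes (1.08, adjusted p = 0.05). On the scaled values, the call over Tfh_OTII was lost without Tfh_TILS replicate 1 (1.07, adjusted p = 0.0684), Tfh_TILS replicate 3 (1.10, adjusted p = 0.072), Tfh_OTII replicate 2 (1.14, adjusted p = 0.0738) or Tfh_OTII replicate 3 (1.19, adjusted p = 0.0697). Over Tfh_Vitro the difference was 0.99 ± 0.29 (adjusted p = 0.102). The 2 Tfh cultures exceeded Th1_Vitro as deposited, Tfh_OTII by 1.14 (adjusted p = 0.00623) and Tfh_Vitro by 1.45 (adjusted p = 0.00172), but not after scaling, where the differences were 0.33 (adjusted p = 0.486) and 0.67 (adjusted p = 0.162). B cells also carry CXCR5, and the B cell marker sums above were highest in Tfh_TILS, but their part in the Cxcr5 level was not tested.

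S1pr2 (chr9:20962361-20976781, minus strand), which encodes the sphingosine 1-phosphate receptor that confines cells to the germinal centre, had 5.51, 11.5 and 4.99 TPM in Tfh_TILS. It had 3.27, 2.63 and 1.53 TPM in Tfh_OTII, 2.86, 4.07 and 4.80 TPM in Tfh_Vitro and 1.86, 1.32 and 1.83 TPM in Th1_Vitro. The lowest tumour library lay just above the highest Tfh_Vitro library. S1pr2 rose in Tfh_TILS over Tfh_OTII (1.21 ± 0.33, adjusted p = 0.0243; 1.10 and adjusted p = 0.0189 after scaling), and this rested in part on Tfh_TILS replicate 2, without which the change was 0.88 (adjusted p = 0.0906). The call was also lost without Tfh_OTII replicate 2 (1.26, adjusted p = 0.0625) or replicate 3 (1.00, adjusted p = 0.109), and with only these 2 groups fitted (adjusted p = 0.0668). Over Th1_Vitro the change of 1.57 ± 0.33 as deposited (adjusted p = 0.00195) shrank to 0.67 on scaled values, where it was not called (adjusted p = 0.115). Over Tfh_Vitro the difference was 0.70 ± 0.33 (adjusted p = 0.359). Tfh_Vitro over Th1_Vitro was called as deposited (0.86, adjusted p = 0.0488; 0.10 and adjusted p = 0.853 scaled), and Tfh_OTII over Th1_Vitro turned sign without a call (0.35 as deposited, -0.43 scaled).

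P2rx7 (chr5:122643911-122691432, plus strand) had 9.22, 32.0 and 10.4 TPM in Tfh_TILS. It had 10.3, 10.9 and 7.25 TPM in Tfh_OTII, 10.9, 6.74 and 9.20 TPM in Tfh_Vitro and 1.94, 1.81 and 2.66 TPM in Th1_Vitro. Apart from Tfh_TILS replicate 2, the 3 Tfh groups covered the same range, and all 9 of their libraries exceeded Th1_Vitro. P2rx7 rose in Tfh_TILS over Th1_Vitro by 2.33 ± 0.39 (adjusted p = 0.000455) and by 1.37 after scaling (adjusted p = 0.0167), and without Tfh_TILS replicate 2 by 1.80 (adjusted p = 0.000683) and, scaled, by 0.90 (adjusted p = 0.0472). The call was lost with libraries scaled to the CD3 chain genes (0.87, adjusted p = 0.056). Over Tfh_OTII the difference was 0.60 ± 0.39 (adjusted p = 0.339), and 0.06 (adjusted p = 0.919) without Tfh_TILS replicate 2. Over Tfh_Vitro it was 0.68 ± 0.39 (adjusted p = 0.494). The cultures exceeded Th1_Vitro as deposited, by 1.73 in Tfh_OTII (adjusted p = 0.00297) and 1.65 in Tfh_Vitro (adjusted p = 0.00484), but on scaled values the 0.86 and 0.83 that were left were not called (adjusted p = 0.0945 and 0.128). Macrophages also carry P2RX7, and replicate 2 had both the highest P2rx7 level and the highest macrophage marker sum; the part of those cells was not tested.

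Of the genes with restraining products, Pdcd1 was tied to the sort, so its high range in Tfh_TILS is a check of the label. The ranges of Btla and Cd200, whose products were not gated, did not set Tfh_TILS apart as deposited. Pdcd1 (chr1:94038305-94052553, minus strand), which encodes PD1, had 26.2, 40.1 and 28.0 TPM in Tfh_TILS, whose cells were gated on that protein. It had 11.9, 15.2 and 14.3 TPM in Tfh_OTII, 19.1, 16.0 and 21.4 TPM in Tfh_Vitro and 3.29, 7.41 and 14.3 TPM in Th1_Vitro. As deposited, the tumour libraries lay above all 9 cultured libraries. After scaling the lowest of them, at 21.3, lay just under the highest Th1_Vitro library, at 21.5. Pdcd1 did not pass the test over Tfh_OTII (1.11 ± 0.37, adjusted p = 0.059; 1.01 and adjusted p = 0.0747 after scaling) or over Tfh_Vitro (0.69 ± 0.37, adjusted p = 0.448). Over Tfh_OTII it passed under some other settings, for example with a filter at 5 TPM (adjusted p = 0.0401) or with CD3 scaling (1.54, adjusted p = 0.00358). Over Th1_Vitro it was called as deposited only (1.96 ± 0.37, adjusted p = 0.00101, against 0.85 and adjusted p = 0.118 after scaling). So it was in Tfh_Vitro over Th1_Vitro (1.27, adjusted p = 0.0157; 0.29 and adjusted p = 0.628 scaled), and in Tfh_OTII over Th1_Vitro it was not called (0.85 as deposited, -0.16 scaled).

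Btla (chr16:45224315-45257670, plus strand), the receptor for the TNF receptor family member HVEM, had 62.0, 30.8 and 58.5 TPM in Tfh_TILS. It had 60.9, 56.0 and 61.3 TPM in Tfh_OTII, 54.9, 46.0 and 49.0 TPM in Tfh_Vitro and 33.8, 60.1 and 45.8 TPM in Th1_Vitro. Cd200 (chr16:45382135-45409053, minus strand), whose product engages the inhibitory receptor CD200R on myeloid cells, was the most abundant gene of the set in every cultured group by mean TPM. Cd200 had 157, 91.3 and 107 TPM in Tfh_TILS, 139, 143 and 156 TPM in Tfh_OTII, 158, 137 and 153 TPM in Tfh_Vitro and 109, 142 and 175 TPM in Th1_Vitro. For both genes the range of each Tfh group overlapped that of Th1_Vitro as deposited. Neither was called in any comparison as deposited, with differences from -0.36 to 0.38 on the log2 scale. After scaling, Cd200 was lower in all 3 Tfh groups than in Th1_Vitro, by -1.48 in Tfh_TILS (adjusted p = 0.0052), -1.05 in Tfh_OTII (adjusted p = 0.0225) and -0.98 in Tfh_Vitro (adjusted p = 0.0411), where 6.99, 7.77 and 5.07% of all genes were called lower in the same order. Btla was lower after scaling in Tfh_TILS over Th1_Vitro alone (-1.11, adjusted p = 0.0404), and without Tfh_TILS replicate 2 that difference was -0.72 (adjusted p = 0.151). The call of Cd200 in Tfh_TILS held without any 1 library of the groups compared, and the other 3 did not. Btla in Tfh_TILS lost its call also without Tfh_TILS replicate 3 (adjusted p = 0.062) or Th1_Vitro replicate 2 or 3 (adjusted p = 0.12 and 0.0532). Cd200 in Tfh_OTII lost it without Tfh_OTII replicate 1 or 2 (adjusted p = 0.0823 and 0.0661) or Th1_Vitro replicate 2 or 3 (adjusted p = 0.0637 and 0.0506). Cd200 in Tfh_Vitro lost it without Tfh_Vitro replicate 1, 2 or 3 (adjusted p = 0.0638, 0.139 and 0.135) or Th1_Vitro replicate 2 or 3 (adjusted p = 0.0977 and 0.0839).

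Btla and Cd200 had the most similar patterns of any 2 genes of the set over the 12 libraries, with a Pearson r of 0.91 on log2(scaled TPM + 1), and they are neighbours: 124 kb lie between them on chromosome 16, with 0 annotated genes in that stretch. Libraries that share a group and a scaling factor make up this correlation, so it is a description. It was taken on scaled values, and as deposited neither gene was called in any comparison. Outside the set both had closer genes, Btla with Wdr36 (r = 0.98) and Cd200 with Btf3 (r = 0.99). Slamf6 did not follow them (r = -0.27 with Btla and -0.42 with Cd200). The stretches upstream of these 3 genes run from 250 to 26 bases before the RefSeq transcript start (GRCm38.p6). These stretches are shown to set those of Btla and Cd200, alike on scaled values, beside that of Slamf6. They are Btla chr16:45224087-45224311, plus strand, Cd200 chr16:45409079-45409303, minus strand, and Slamf6 chr1:171917212-171917436, plus strand, each read 5′ to 3′ along the gene's strand, with E-boxes in capitals.
Btla: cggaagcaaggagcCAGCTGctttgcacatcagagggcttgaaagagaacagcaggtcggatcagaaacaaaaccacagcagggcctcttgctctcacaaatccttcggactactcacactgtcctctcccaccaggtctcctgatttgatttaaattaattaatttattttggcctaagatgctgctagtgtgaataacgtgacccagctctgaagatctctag
Cd200: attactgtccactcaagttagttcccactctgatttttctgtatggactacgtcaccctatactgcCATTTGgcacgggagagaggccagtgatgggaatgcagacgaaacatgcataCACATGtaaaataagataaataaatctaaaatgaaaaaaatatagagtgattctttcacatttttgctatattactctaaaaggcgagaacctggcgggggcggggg
Slamf6: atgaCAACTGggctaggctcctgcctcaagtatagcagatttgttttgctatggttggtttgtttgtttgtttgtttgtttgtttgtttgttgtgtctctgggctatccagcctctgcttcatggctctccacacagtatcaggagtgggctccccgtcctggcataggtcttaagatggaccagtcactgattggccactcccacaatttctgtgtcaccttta
The motifs searched on both strands were the E-box CANNTG, bound by basic helix-loop-helix factors, TTCNNNGAA (STAT), TGANTCA (AP-1) and GGAAA (the NFAT core), where N is any base. Btla held 1 E-box (CAGCTG), Cd200 held 2 (CATTTG and CACATG) and Slamf6 held 1 (CAACTG), and no other motif of the 4 was in these letters. An E-box was in 62.8% of 32851 such windows over all genes, TTCNNNGAA in 6.38%, TGANTCA in 6.24% and GGAAA in 52.0%, so neither the matches nor their absence set these windows apart.

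The ranges of the SLAM receptor gene Slamf6 separated Th1_Vitro from all Tfh groups as deposited and after median-of-ratios scaling. Slamf6 (chr1:171917515-171953170, plus strand), which encodes the receptor Ly108, had 107, 71.4 and 84.0 TPM in Tfh_TILS. It had 70.4, 73.5 and 79.0 TPM in Tfh_OTII, 86.6, 66.5 and 91.9 TPM in Tfh_Vitro and 15.1, 20.6 and 22.4 TPM in Th1_Vitro. The Tfh groups overlapped each other, and the Th1_Vitro range lay far below them as deposited. After median-of-ratios scaling the gap was small, with Th1_Vitro at 27.9 to 43.9 and the lowest Tfh library, in Tfh_OTII, at 49.1. Slamf6 rose over Th1_Vitro in Tfh_TILS (2.12 ± 0.23, adjusted p = 4.04e-05; 0.94 and adjusted p = 0.0309 after scaling), in Tfh_OTII (1.90 ± 0.23, adjusted p = 3.34e-05; 0.81 and adjusted p = 0.0496) and in Tfh_Vitro (2.03 ± 0.23, adjusted p = 4.84e-05; 0.98 and adjusted p = 0.0302). These 3 comparisons share the Th1_Vitro libraries. With libraries scaled to the CD3 chain genes, whose sum was 181 ± 69.2 TPM in Th1_Vitro (SD, n = 3), the differences were 0.34 (adjusted p = 0.457), -0.34 (adjusted p = 0.398) and 0.07 (adjusted p = 0.891) in the same order, so the Tfh_OTII direction turned. On the median-of-ratios scale, calls were lost on leaving out 1 library: in Tfh_TILS over Th1_Vitro without Tfh_TILS replicate 1 or 3 or Th1_Vitro replicate 1 or 3 (adjusted p = 0.106, 0.0663, 0.0958 and 0.0804). In Tfh_OTII over Th1_Vitro the same held without Tfh_OTII replicate 2 or 3 or Th1_Vitro replicate 1 or 3 (adjusted p = 0.127, 0.154, 0.162 and 0.105). In Tfh_Vitro over Th1_Vitro it held without Tfh_Vitro replicate 1, 2 or 3 or Th1_Vitro replicate 1 or 3 (adjusted p = 0.0965, 0.0606, 0.0979, 0.0947 and 0.078). Between the Tfh groups, the difference was 0.21 in Tfh_TILS over Tfh_OTII (95% interval -0.28 to 0.71) and 0.09 in Tfh_TILS over Tfh_Vitro (-0.40 to 0.58).

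Its adaptor did not keep to that pattern. Sh2d1a (chrX:42502453-42529330, plus strand), which encodes SAP, had 135, 113 and 98.2 TPM in Tfh_TILS. It had 44.0, 45.7 and 33.0 TPM in Tfh_OTII, 55.6, 74.1 and 97.1 TPM in Tfh_Vitro and 19.2, 28.5 and 21.5 TPM in Th1_Vitro. The 4 ranges did not overlap as deposited, although the lowest tumour library and the highest Tfh_Vitro library nearly met, and Tfh_OTII was the lowest Tfh group. Sh2d1a rose in Tfh_TILS over Tfh_OTII (1.48 ± 0.25, adjusted p = 0.00208; 1.38 and adjusted p = 0.0053 after scaling), and every setting tried kept that call. It rose in Tfh_TILS over Th1_Vitro (2.28 ± 0.25, adjusted p = 4.8e-05; 1.10 and adjusted p = 0.0169 after scaling), a call lost on the scaled values without Tfh_TILS replicate 1 (0.89, adjusted p = 0.0594) or Th1_Vitro replicate 3 (0.91, adjusted p = 0.0633) and with CD3 scaling (0.49, adjusted p = 0.352). In Tfh_OTII over Th1_Vitro the difference of 0.81 as deposited (adjusted p = 0.0212) became -0.29 on scaled values, with an adjusted p of 0.502. In Tfh_Vitro over Th1_Vitro it was 1.65 as deposited (adjusted p = 0.000351) but 0.60 scaled (adjusted p = 0.166). Among the Tfh groups, the difference was 0.63 ± 0.25 in Tfh_TILS over Tfh_Vitro (adjusted p = 0.273) and -0.85 ± 0.25 in Tfh_OTII over Tfh_Vitro (adjusted p = 0.117). Within libraries, the ratio of Sh2d1a to Slamf6 was 1.27, 1.58 and 1.17 in Tfh_TILS, against 0.625, 0.622 and 0.418 in Tfh_OTII, 0.642, 1.11 and 1.06 in Tfh_Vitro and 1.27, 1.38 and 0.960 in Th1_Vitro. The adaptor exceeded the receptor in every tumour library and in no Tfh_OTII library, and Tfh_TILS and Th1_Vitro overlapped.

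Counted over the set, Tfh_TILS over Tfh_OTII gave 4 genes that rose (Icos, Sh2d1a, Cxcr5 and S1pr2) and 1 that fell (Cd40lg) of 10. Of all tested genes, 13.6% were called both ways in that comparison, 6.76% higher and 6.84% lower. As deposited, 15.3% were called, and 5 of 10 in the set. With a filter at 5 TPM, which all 10 passed, 27.4% of genes were called as deposited, and Pdcd1 was called as well (adjusted p = 0.0401). Ranges as deposited did not overlap for 6 of the 10, and for 35.0% of all tested genes. The share of all genes called as deposited was 9.45% without Tfh_OTII replicate 2 and 8.30% without Tfh_OTII replicate 3. Since Cxcr5 was tied to the sort, 3 of the 4 rises lay outside the gated genes. The median log2 fold change was 0.86 over the set and 0.06 over all tested genes. In each comparison of Tfh_TILS, the medians and counts over the set include Cxcr5 and Pdcd1, which were tied to the sort.

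Tfh_TILS over Tfh_Vitro gave 1 gene that rose, Icos, where 1.81% of all genes were called both ways (0.965% higher) and 2.10% as deposited. That last share was 0.437, 0.402 and 0.835% without Tfh_Vitro replicate 1, 2 and 3, 3.71 and 0.772% without Tfh_TILS replicate 1 and 3, 1.30 and 1.35% without Tfh_OTII replicate 2 and 3, and 4.49% without Th1_Vitro replicate 3. With a filter at 5 TPM the share was 4.96%. Ranges as deposited did not overlap for 6 of the 10 and for 23.7% of all genes, and the medians were 0.65 over the set and 0.10 over all genes. Tfh_OTII over Tfh_Vitro gave 0 genes that limma called both ways, where 1.82% of all genes were called (2.38% as deposited). The 2.38% was 0.920% without Tfh_OTII replicate 3, 0.783 and 0.623% without Tfh_Vitro replicate 2 and 3, and 4.46% without Th1_Vitro replicate 3. At an unadjusted p under 0.05 there were 2 of 10 both ways (11.2% of all genes), with 4 of 10 ranges apart (29.1% of all genes) and medians of -0.22 over the set and 0.05 over all genes.

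Against Th1_Vitro the counts turned on the scaling. In Tfh_TILS over Th1_Vitro, 8 of 10 were higher as deposited, as were 49.3% of all genes. Both ways, 5 rose (Icos, Cxcr5, P2rx7, Sh2d1a and Slamf6), as did 10.2% of all genes. In Tfh_OTII over Th1_Vitro, 5 were higher as deposited (42.7% of all genes) and 1 rose both ways (12.3% of all genes). In Tfh_Vitro over Th1_Vitro, 8 were higher as deposited (41.1%) and 1 rose both ways (8.65%). Slamf6 was the 1 in each. For the cultures, 1 of 10 both ways was thus near the share among all genes. After scaling the medians of the set were 0.89, -0.22 and 0.64 in Tfh_TILS, Tfh_OTII and Tfh_Vitro over Th1_Vitro, beside 0.16, 0.12 and 0.14 over all genes. Ranges as deposited were apart for 7, 5 and 8 of 10, beside 55.5, 51.1 and 56.4% of all genes. With a filter at 5 TPM, 8726, 7962 and 7805 of 12852 genes were higher as deposited in Tfh_TILS, Tfh_OTII and Tfh_Vitro over Th1_Vitro.

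**Figure D3:**
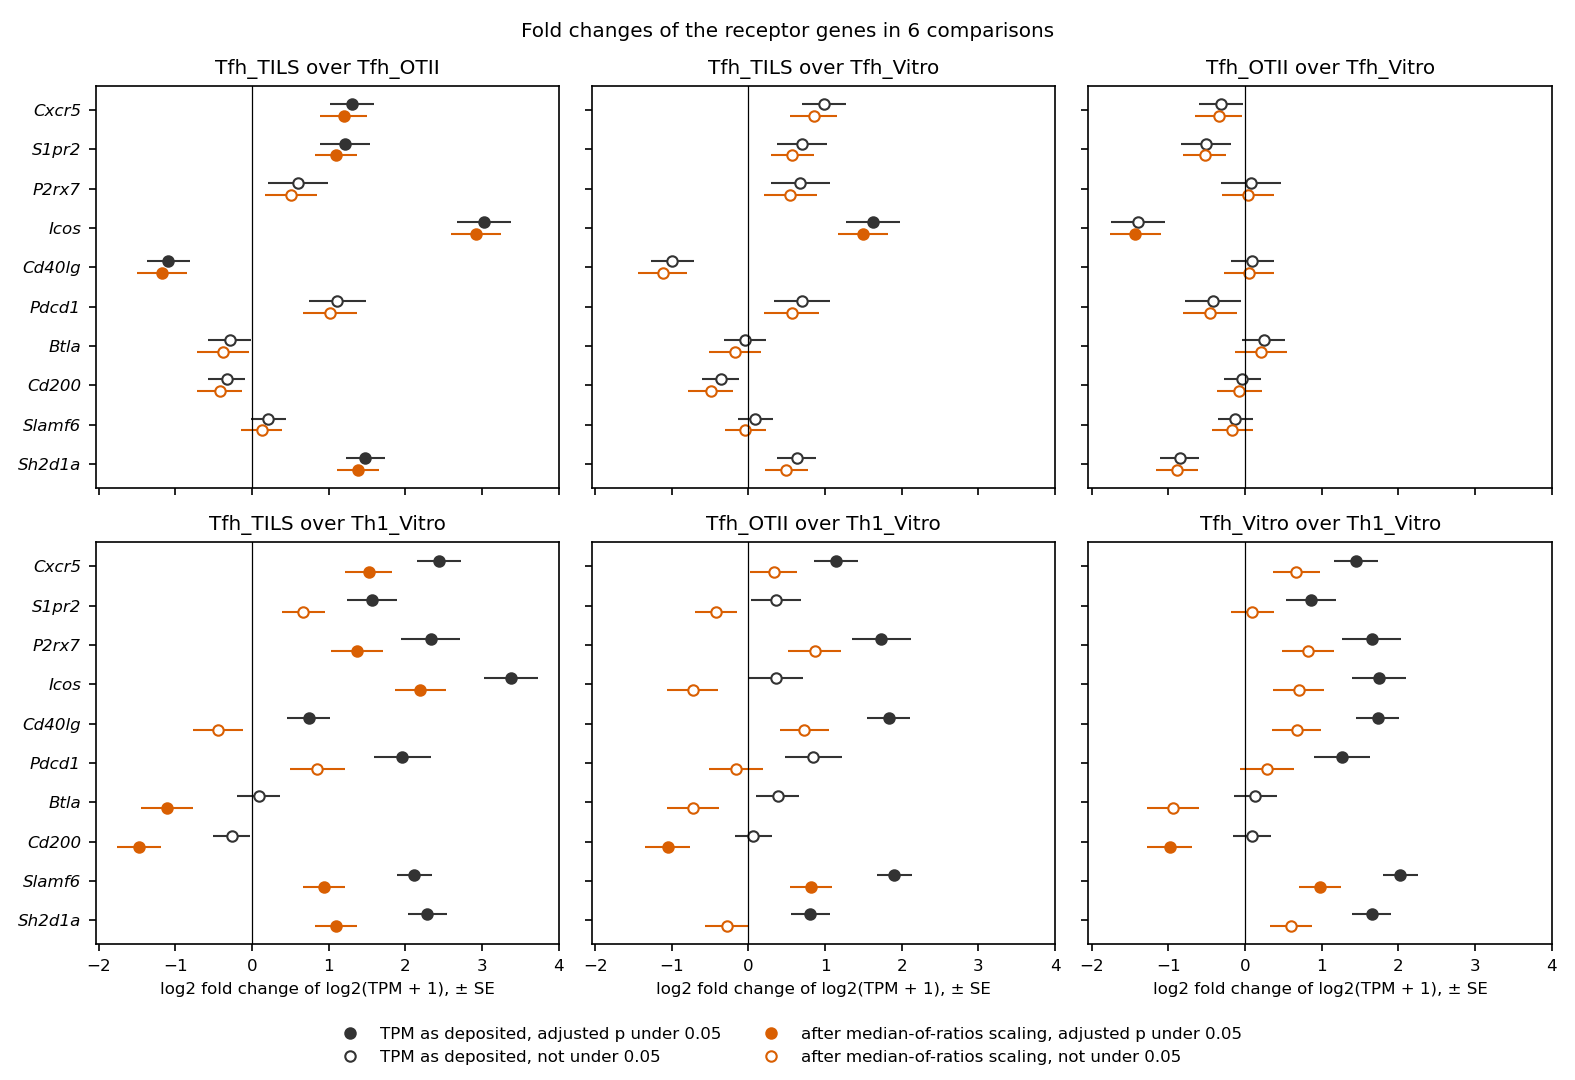
Log2 fold change of the 10 receptor genes in 6 comparisons, with limma SE as bars, as deposited (dark) and after median-of-ratios scaling (orange); filled points have an adjusted p under 0.05. In the lower row, against Th1_Vitro, the 2 scales part widely, as with Cd200 in Tfh_TILS over Th1_Vitro (-0.27 as deposited, -1.48 scaled).

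The 10 genes summed to 720.1 ± 98.0 TPM in Tfh_TILS, 487 ± 11.8 in Tfh_OTII, 565 ± 55.1 in Tfh_Vitro and 295 ± 67.4 in Th1_Vitro as deposited (SD, n = 3 each). After scaling the sums were 561 ± 80.0, 408 ± 71.6, 482 ± 47.4 and 537 ± 139 in the same order, so Th1_Vitro was the lowest group as deposited and second by mean after scaling. Each gene's share of the sum within a library does not depend on scaling. Icos made up 30.2 ± 14.6% of that sum in Tfh_TILS, against 4.93 ± 0.729% in Tfh_OTII, 11.5 ± 1.61% in Tfh_Vitro and 6.38 ± 0.731% in Th1_Vitro. Its tumour share was 18.9 to 46.7%, with Tfh_TILS replicate 2 at the top. Cd200 made up 16.8 ± 5.39% in Tfh_TILS, 30.0 ± 1.39% in Tfh_OTII, 26.5 ± 1.19% in Tfh_Vitro and 48.1 ± 3.28% in Th1_Vitro. No library outside Th1_Vitro had a Cd200 share above 31.5%, and no Th1_Vitro library was under 44.4%. Cd40lg had its largest shares in the Tfh cultures, 22.9 ± 1.52% in Tfh_OTII and 18.6 ± 1.83% in Tfh_Vitro, beside 7.66 ± 2.85% in Tfh_TILS and 10.6 ± 1.30% in Th1_Vitro. Slamf6 took 12.4 ± 3.22% in Tfh_TILS, 15.2 ± 0.648% in Tfh_OTII, 14.4 ± 1.03% in Tfh_Vitro and 6.59 ± 0.265% in Th1_Vitro. Cd200 had the largest mean share in each of the 3 cultures. In the tumour cells Icos led in replicates 2 and 3, and in replicate 1 Cd200 (21.9%) led over Icos (18.9%).

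**Figure D4:**
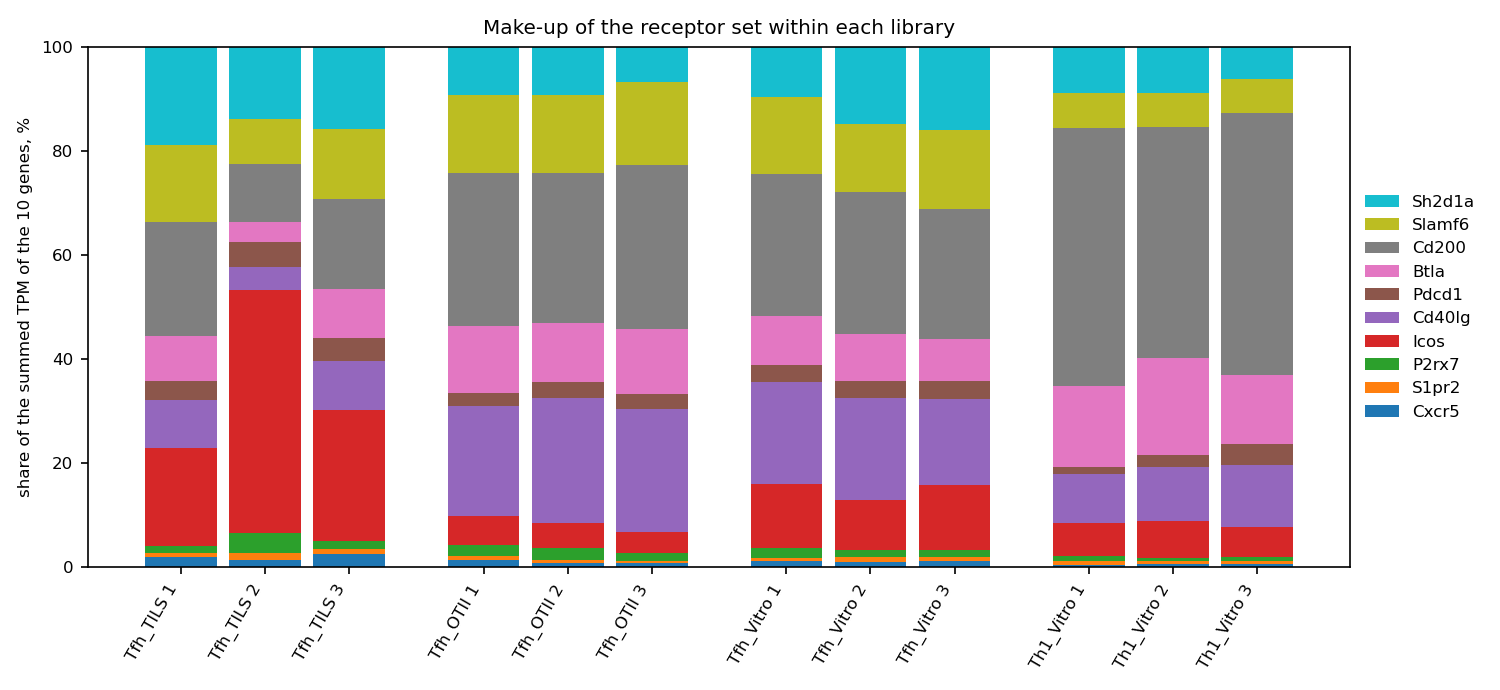
Share of each of the 10 genes in their summed TPM, in percent, for each library (stacked bars). Icos takes 18.9 to 46.7% in the 3 Tfh_TILS libraries, and Cd200 takes 44.4 to 50.4% in the 3 Th1_Vitro libraries.

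The ligands and partners of these receptors were followed as a list of 7 genes, 6 of them tested. In Tfh_TILS over Tfh_OTII 4 of 6 rose, beside 6.76% of all genes, with a list median of 1.32 beside 0.06 over all genes. Cd274, which encodes the PD1 ligand PDL1, rose by 2.42 ± 0.24 (adjusted p = 7.31e-05), with 179 ± 58.8 TPM in Tfh_TILS and 31.5 ± 1.19 TPM in Tfh_OTII (SD, n = 3 each). Cd200r1, the receptor of CD200, rose by 2.15 ± 0.37 (adjusted p = 0.00213), and Cd40, the receptor of CD40L, by 1.64 ± 0.39 (adjusted p = 0.0131). Pdcd1lg2, the second PD1 ligand, was the fourth (0.96 ± 0.26, adjusted p = 0.0266). Myeloid cells and B cells also express these genes, and the markers of both were higher in Tfh_TILS as given above; their part was not tested. Without Tfh_TILS replicate 2, Cd274 (2.17) and Cd200r1 (1.66) were still called over Tfh_OTII both ways, and Cd40 (1.39, adjusted p = 0.0532 as deposited) and Pdcd1lg2 (0.75, adjusted p = 0.0942) were not. Over Tfh_Vitro 2 of 6 rose (0.965% of all genes), Cd40 (1.66 ± 0.39, adjusted p = 0.0475) and Cd274 (1.25 ± 0.24, adjusted p = 0.0203). Over Th1_Vitro 2 of 6 rose (10.2% of all genes), Cd200r1 (3.0 ± 0.37, adjusted p = 7.95e-05) and Cd274 (1.94 ± 0.24, adjusted p = 8.34e-05). After scaling these rises over Th1_Vitro were 2.22 (adjusted p = 0.00128) and 0.74 (adjusted p = 0.0388). Without that replicate, neither call over Tfh_Vitro held both ways (Cd40 1.41, adjusted p = 0.163; Cd274 0.94 and adjusted p = 0.0799 scaled), nor did Cd274 over Th1_Vitro (0.56 and adjusted p = 0.134 scaled). Cd274 was the 1 gene of 6 that fell in Tfh_OTII over Tfh_Vitro (-1.17 ± 0.24, adjusted p = 0.0241), where 1.82% of all genes were called both ways. In Tfh_OTII and Tfh_Vitro over Th1_Vitro limma called 0 of the 6 both ways, where 12.3 and 8.65% of all genes rose. At an unadjusted p under 0.05 there were 0 and 1 both ways. After scaling alone, 5 and 2 of 6 were lower, beside 7.77 and 5.07% of all genes.

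The other SLAM receptors and adaptors gave no call that held both ways. Of 9 tested, among them Slamf1, Cd84, Ly9, Cd48 and the kinase gene Fyn, 0 were called both ways by limma in each of the 6 comparisons, and 0 to 2 of 9 had an unadjusted p under 0.05 both ways. Of all genes, 13.6, 1.81 and 1.82% were called both ways in Tfh_TILS over Tfh_OTII, Tfh_TILS over Tfh_Vitro and Tfh_OTII over Tfh_Vitro. In Tfh_TILS, Tfh_OTII and Tfh_Vitro over Th1_Vitro, 10.2, 12.3 and 8.65% of all genes rose. As deposited 7, 5 and 6 of 9 were higher in Tfh_TILS, Tfh_OTII and Tfh_Vitro over Th1_Vitro, beside 49.3, 42.7 and 41.1% of all genes. After scaling 0, 0 and 0 of 9 were higher.

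Of 14 signal relay genes, Ptpn6, which encodes the phosphatase SHP1 recruited by inhibitory receptors, stood at 90.4, 245 and 128 TPM in Tfh_TILS, against 590.4, 615 and 638 TPM in Tfh_OTII. It had 305, 296 and 249 TPM in Tfh_Vitro and 52.2, 50.0 and 94.7 TPM in Th1_Vitro. Its ranges ran in the order Tfh_OTII, Tfh_Vitro, Tfh_TILS and Th1_Vitro, with overlap only between the last 2. Ptpn6 fell in Tfh_TILS over Tfh_OTII by 2.11 on the log2 scale (adjusted p = 0.00139), as the 1 called gene of the 14, beside 13.6% of all genes called both ways. It rose in Tfh_OTII over Th1_Vitro (3.27 ± 0.34, adjusted p = 1.17e-05), with Gnai2, an inhibitory G protein subunit (2.42 ± 0.33, adjusted p = 8.17e-05), and in Tfh_Vitro over Th1_Vitro (2.15 ± 0.34, adjusted p = 0.000426). After scaling these rises were 2.15 (adjusted p = 0.000422), 1.30 (adjusted p = 0.00615) and 1.08 (adjusted p = 0.0348), in the same order. In Tfh_TILS over Th1_Vitro, Traf3, an adaptor of CD40 family receptors, rose by 2.27 ± 0.36 (adjusted p = 0.00034) and Pik3r1, a PI3 kinase subunit that ICOS recruits, by 2.14 ± 0.27 (adjusted p = 8.19e-05). After scaling these rises were 1.12 (adjusted p = 0.0264) for Traf3 and 0.99 (adjusted p = 0.0196) for Pik3r1. Without Tfh_TILS replicate 2, neither was called on the scaled values (Traf3 0.89, adjusted p = 0.101, and Pik3r1 0.87, adjusted p = 0.0718). The genes that rose over Th1_Vitro were 2, 2 and 1 of 14 in Tfh_TILS, Tfh_OTII and Tfh_Vitro, beside 10.2, 12.3 and 8.65% of all genes. In Tfh_TILS and Tfh_OTII over Tfh_Vitro limma called 0 of the 14 both ways, beside 1.81 and 1.82% of all genes. At an unadjusted p under 0.05 both ways there were 2 and 1, beside 11.2% of all genes in Tfh_OTII over Tfh_Vitro.

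Of 10 other homing receptors, 3 rose in Tfh_TILS over Tfh_OTII, beside 6.76% of all genes. Cxcr4, which draws cells to the dark zone of the germinal centre, rose by 2.62 ± 0.43 (adjusted p = 0.0015), Cxcr3, a receptor for interferon-induced chemokines, by 1.45 ± 0.40 (adjusted p = 0.0292) and Itgae, an integrin of tissue-resident cells, by 1.44 ± 0.42 (adjusted p = 0.0344). All 3 were highest in Tfh_TILS replicate 2, the library with the highest macrophage marker sum, where Cxcr4 had 82.0 TPM, against 17.7 and 29.4 TPM in replicates 1 and 3. Without it Cxcr4 was still called (2.01, adjusted p = 0.00174), and Cxcr3 (0.95, adjusted p = 0.0982) and Itgae (0.92, adjusted p = 0.117) were not. Cxcr4 also rose over Tfh_Vitro (1.84 ± 0.43, adjusted p = 0.0454), as 1 of 10 beside 0.965% of all genes, and was not called there without that library (1.24, adjusted p = 0.0819). Over Th1_Vitro 5 of 10 rose (10.2% of all genes), among them Cxcr4 (3.64 ± 0.43, adjusted p = 6.12e-05), Itgae (3.15 ± 0.42, adjusted p = 0.000114) and Ccr6 (2.84 ± 0.52, adjusted p = 0.000895). Ccr7, the lymph node homing receptor, fell there (-1.01 ± 0.24, adjusted p = 0.00489). After scaling these changes were 2.70 (adjusted p = 0.00101), 2.53 (adjusted p = 0.00113), 1.89 (adjusted p = 0.046) and -2.21 (adjusted p = 0.000388), in the same order. Of those named, Ccr6 lost its call without Tfh_TILS replicate 2 on the scaled values (1.90, adjusted p = 0.101). In the 2 Tfh cultures over Th1_Vitro, S1pr1, the egress receptor that opposes S1PR2, rose by 2.02 ± 0.22 in Tfh_OTII (adjusted p = 1.47e-05) and by 2.66 ± 0.22 in Tfh_Vitro (adjusted p = 4.68e-06), and Itgae by 1.71 ± 0.42 (adjusted p = 0.00519) and 1.97 ± 0.42 (adjusted p = 0.00269). After scaling S1pr1 rose by 1.16 (adjusted p = 0.00462) and 1.83 (adjusted p = 0.000485), and Itgae by 1.21 (adjusted p = 0.0329) and 1.49 (adjusted p = 0.0169), in the same order. These genes were 2 of 10 in each, beside 12.3 and 8.65% of all genes. In Tfh_OTII over Tfh_Vitro limma called 0 of the 10 both ways, beside 1.82% of all genes. At an unadjusted p under 0.05 both ways there was 1, beside 11.2% of all genes.

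The transcription factors that govern the Tfh programme moved in both directions. Of 13 tested, 5 rose and 4 fell in Tfh_TILS over Tfh_OTII, where 6.76% of all genes rose and 6.84% fell. Bcl6, the defining factor of Tfh cells, rose by 1.50 ± 0.23 (adjusted p = 0.00117), with 14.5 ± 3.97 TPM in Tfh_TILS and 4.40 ± 0.140 TPM in Tfh_OTII (SD, n = 3 each). Larger were the rises of Maf (4.35 ± 0.43, adjusted p = 7.15e-05), which promotes Il21 expression, of Prdm1 (3.46 ± 0.45, adjusted p = 0.000359), which encodes the Bcl6 antagonist BLIMP1, and of Tox2 (1.71 ± 0.24, adjusted p = 0.000578). In Tfh_TILS replicates 1, 2 and 3, Maf had 43.4, 189 and 65.3 TPM and Prdm1 11.7, 59.1 and 24.4 TPM, both highest in the library with the highest macrophage marker sum and Foxp3 level. Without it Maf (3.75, adjusted p = 6.14e-05), Prdm1 (2.88, adjusted p = 0.000618), Tox2 (1.76, adjusted p = 0.00194) and Bcl6 (1.31, adjusted p = 0.00475) were still called both ways. Id3, Lef1 and Tcf7, which encode factors of naive and early Tfh cells, fell by 1.63, 1.20 and 1.19 on the log2 scale (adjusted p = 0.00631, 0.00486 and 0.0117). Over Tfh_Vitro, Maf (2.07 ± 0.43, adjusted p = 0.0283), Tox (1.29 ± 0.28, adjusted p = 0.0346) and Bcl6 (1.11 ± 0.23, adjusted p = 0.0302) rose and Lef1 fell (-1.49 ± 0.24, adjusted p = 0.00795), but without Tfh_TILS replicate 2 the calls of Bcl6 (0.91, adjusted p = 0.0997) and Tox (1.28, adjusted p = 0.0881) were lost. Maf fell in Tfh_OTII over Tfh_Vitro (-2.28 ± 0.43, adjusted p = 0.0156), as 1 of 13, where 1.82% of all genes were called both ways. Against Th1_Vitro 7 of 13 rose in Tfh_TILS and in Tfh_Vitro and 2 of 13 in Tfh_OTII, beside 10.2, 8.65 and 12.3% of all genes. Maf led in Tfh_TILS (5.06 ± 0.43, adjusted p = 1.24e-05) and in Tfh_Vitro (2.99 ± 0.43, adjusted p = 0.000237), and Tcf7 led in Tfh_OTII (2.52 ± 0.28, adjusted p = 1.81e-05). After scaling these rises were 4.13 (adjusted p = 5.94e-05), 2.20 (adjusted p = 0.00273) and 1.41 (adjusted p = 0.00463), in the same order. Id3 was the 1 that fell, in Tfh_TILS over Th1_Vitro (-1.52 ± 0.34, adjusted p = 0.00297, and -2.66, adjusted p = 0.000287, after scaling).

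Genes with patterns most like each receptor were named by Pearson correlation over the 12 libraries on log2(scaled TPM + 1), among 9563 named protein-coding genes that averaged at least 5 TPM. Libraries share their groups and their scaling factors, so these values only describe the order of levels. Icos was nearest to Hopx (r = 0.97), Il10 (0.97) and Gadd45a (0.96). Cxcr5 was nearest to Tbc1d4 (0.97), Sh2d1a to Tmem126b (0.99), Slamf6 to Tbp (0.96), Pdcd1 to Slfn2 (0.91) and Cd40lg to Gfer (0.96). Btla was nearest to Wdr36 (0.98) and Cd200 to Btf3 (0.99). P2rx7 was nearest to H1f0 (0.95), and S1pr2 to Arnt2 (0.96). Within the set, Icos was closest to S1pr2 (r = 0.87) and to Sh2d1a (0.85), and the lowest value was between Cd200 and P2rx7 (-0.81).

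In Tfh_TILS over Tfh_OTII, where 6.76% of all genes rose and 6.84% fell, markers of the remaining cell types were also counted. Of those tested, 2 of 8 dendritic cell markers rose and 1 fell, 1 of 3 NK cell markers and 1 of 5 endothelial markers rose, 1 of 5 fibroblast markers fell, 1 of 2 CD8 T cell markers and 1 of 11 T cell markers fell, and 0 of 5 epithelial and 0 of 3 red cell markers were called both ways by limma, with 1 of 5 and 1 of 3 at an unadjusted p under 0.05. Their part in the receptor levels was not tested.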

How the data were processed

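RNA was extracted from 300000 CD4+ T cells per library, and stranded total RNA libraries with ribosomal RNA removed were sequenced as pairs of 75 bases, per the labels' protocols. The deposited values are TPM, which the authors obtained with kallisto on mm10, per the submitters' processing notes; neither its version nor the annotation is given in the sources used here. Each library has 1 table of 35492 symbols whose TPM add up to 1000000, without counts, so depth is unknown and neither counting intervals nor floors were computed. Positions are those of GENCODE mouse release 21 (97.8% of symbols matched), and promoters are from RefSeq (GRCm38.p6), which held 6 of the 10 genes.

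Groups were taken from the titles. limma 3.58.1 (R 4.3.3, trended prior variance) was fitted to log2(TPM + 1) over all 12 libraries with 1 mean per group, for genes whose mean TPM reached 1 in some group, and p-values were adjusted over all 23308 by Benjamini-Hochberg. Fold changes are on the log2(TPM + 1) scale and understate changes of low genes. Errors of fold changes are limma's SE, and other errors are SD over 3 libraries. Median-of-ratios factors were computed over 17585 genes above 0 in every library. The fit was checked on simulated data with known changes, added in Tfh_TILS only. Those data held no shift in composition between groups, so the check does not cover the effect of scaling against Th1_Vitro. The labels do not tell whether replicates are separate animals or cultures, so the spread behind each p-value is that between libraries and may be technical.

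The 10 genes and the lists were chosen with earlier results of these data known. All 10 were kept in every comparison, in the text or in the plot of fold changes; from each list of partners, SLAM genes, signal relay genes, homing receptors and regulators, up to 3 higher and 3 lower called genes were named by size, and Bcl6, Pdcd1lg2 and Foxp3 were added after their values were seen. The marker lists cover T, CD8 T, B, NK, dendritic, endothelial, epithelial and red cells, fibroblasts, and macrophages with monocytes. Alternatives were the trimmed mean of M values, scaling to CD3 chain genes, leaving out symbols above 1% of TPM and 0.1 as the pseudocount. Others were filters of 0 and 5 TPM, separate fits per pair of groups, a block for the replicate number, and leaving out each library. For the 10 genes, only libraries of the groups compared were left out. Leaving libraries out on the scaled values, and Tfh_TILS replicate 2 for list genes, was added after seeing the data.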

Additional observations from a re-analysis of the deposited data

How the results depend on the processing

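Members called numbered 5 in Tfh_TILS over Tfh_OTII, 1 over Tfh_Vitro and 8 over Th1_Vitro, and 0 in Tfh_OTII over Tfh_Vitro, 5 in Tfh_OTII and 8 in Tfh_Vitro over Th1_Vitro, as deposited. In Tfh_OTII over Tfh_Vitro the count was 1 with median-of-ratios, trimmed-mean or CD3 scaling (1.92, 1.93 and 0.699% of all genes). The count was also 1 without symbols above 1% of TPM (1.92%) and with a filter at 5 TPM (5%). It was 2 with only these groups fitted, where 13.2% of all genes were called. In Tfh_OTII over Th1_Vitro it was 2 with median-of-ratios or trimmed-mean scaling and without symbols above 1% of TPM (20, 20.5 and 20.4% of all genes). With CD3 scaling it was 6, all lower, where 41.9% of all genes were called. In Tfh_Vitro over Th1_Vitro it was 2 with median-of-ratios or CD3 scaling and without those symbols (13.7, 34.6 and 14.9% of all genes). It was 1 with trimmed-mean scaling (14.4%). In Tfh_TILS over Th1_Vitro it was 4 with CD3 scaling (26.8% of all genes). In Tfh_TILS over Tfh_Vitro it was 0 with no filter (0.989%), with only these groups fitted (1.83%) and with the replicate number as a block (1.2%). The cause of these changes was not tested. Leaving out in turn each library of the groups compared gave 3 to 5, 0 to 1 and 7 to 8 in Tfh_TILS over Tfh_OTII, Tfh_Vitro and Th1_Vitro. It gave 0 to 0 in Tfh_OTII over Tfh_Vitro, and 4 to 6 and 6 to 8 in Tfh_OTII and Tfh_Vitro over Th1_Vitro. On the scaled values these ranges were 2 to 5, 0 to 2, 5 to 6, 0 to 0, 0 to 1 and 0 to 2 in the same order. Of 18 same-numbered pairs of libraries, 3 had deviations correlated over 0.1 (range -0.39 to 0.30), and 0 of 12 libraries correlated best with their own number. No pairing by replicate number was seen, but deviations from means of 3 libraries could miss one. The replicate block changed no other count by over 1.5 times.

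Signs turned against Th1_Vitro; the turns given are those with a call on either side. With median-of-ratios scaling, Btla (-1.11) and Cd40lg (-0.45) in Tfh_TILS, Sh2d1a (-0.29) and Cd200 (-1.05) in Tfh_OTII and Cd200 (-0.98) in Tfh_Vitro turned. With trimmed-mean scaling, Cd40lg in Tfh_TILS (-0.34) and Sh2d1a (-0.14) and Cd200 (-0.91) in Tfh_OTII turned. Without symbols above 1% of TPM, Cd40lg in Tfh_TILS (-0.18), Sh2d1a (-0.36) and Cd200 (-1.13) in Tfh_OTII and Cd200 in Tfh_Vitro (-0.90) turned. With CD3 scaling, Btla (-1.72) and Cd40lg (-1.06) turned in Tfh_TILS. In Tfh_OTII all 10 turned, with calls for Pdcd1, Icos, Sh2d1a, Btla, Cd200 and S1pr2: Cxcr5 (-0.59), Pdcd1 (-1.26), Icos (-1.87), Sh2d1a (-1.44), Slamf6 (-0.34), Btla (-1.89), Cd200 (-2.23), Cd40lg (-0.43), P2rx7 (-0.13) and S1pr2 (-1.32). In Tfh_Vitro, Cxcr5 (-0.058), Pdcd1 (-0.57), Icos (-0.21), Sh2d1a (-0.31), Btla (-1.85), Cd200 (-1.91), Cd40lg (-0.24) and S1pr2 (-0.64) turned, with calls for Btla and Cd200. The CD3 sums that set this scale were 637 ± 204 TPM in Tfh_TILS, 857 ± 59.9 in Tfh_OTII, 701 ± 66.6 in Tfh_Vitro and 181 ± 69.2 in Th1_Vitro (SD, n = 3 each). Of 1260 fold changes recomputed under the alternatives, 127 lost and 20 gained a call with the same sign, and 62 changed sign with no call on either side. The deposited TPM hold no counts, so what depth limits could not be measured, and 32.2 ± 11.4% of symbols were listed at 0 in Th1_Vitro.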
